A study of Drosophila melanogaster with 8 samples.

Results

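The transcripts described here are 10 maternal mRNAs of axis patterning and germ plasm: grk, bcd, osk, nanos, pgc, gcl, exu, swa, stau and orb. They were taken by name, with all 30 transcript rows that matched them by RefSeq identifier, out of 18984 genes, transposons and unmatched transcripts in the table. RNA came from dissected ovaries of Drosophila melanogaster carrying the egt17 or the egt8 allele, both labelled null, and of Oregon-R, a laboratory wild-type strain. The series calls the mutated gene boot, taken here to be the annotated gene Boot. Total RNA was sequenced in 4 libraries: 1 of egt17, 1 of egt8 and 2 of wild type (wild type 1 and wild type 2). Each allele is thus 1 library, and the labels do not say that libraries came from separate groups of flies. The p-values given thus reflect how far these libraries vary, possibly for technical reasons alone.

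In the fly ovary, nurse cells make mRNAs that are carried into the oocyte and anchored at set places. bcd RNA is kept at the anterior pole and osk RNA at the posterior pole, where Oskar protein assembles the germ plasm that holds nanos, pgc and gcl RNA. grk RNA lies beside the oocyte nucleus, and the Gurken ligand made there signals to the follicle cells through their EGF receptor, first to fix posterior and later dorsal fate. Mutants of the piRNA pathway, in which Boot acts, are known for disturbed placement or translation of grk and osk RNA, a step that RNA abundance in whole ovaries does not show.

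Boot RNA, the check of the labels, stood at 40.6 FPKM (egt17) and 52.1 FPKM (egt8), against 88.6 FPKM in wild type 1 and 89.7 FPKM in wild type 2. FPKM, a read level scaled for transcript length and library depth, was deposited with 1 added, and the 1 was subtracted here. The estimated depth was 6.05 M reads in egt17, 15.7 M in egt8, 6.22 M in wild type 1 and 16.4 M in wild type 2. Log2 values of 8780 features correlated at 0.966 between egt17 and wild type 1 and at 0.948 between egt8 and wild type 2, against 0.876 between the mutants and 0.901 between the wild types. Depth and likeness thus grouped the libraries as pair 1 (egt17 and wild type 1) and pair 2 (egt8 and wild type 2), for which the labels give no reason. Differences below are on the log2(FPKM + 1) scale, egt null minus wild type, with the SE of a limma fit over the 8780 features with at least 1 FPKM in at least 2 libraries. All 10 members were among them.

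None of the 10 mRNAs passed the test. By limma, 0 of 10 had an adjusted p under 0.05 in egt null against wild type, where 0% of all features did, and 0 of 10 had an unadjusted p under 0.05, where 166 features did (1.89%). All 10 had a limma adjusted p of 0.9999. Boot itself, with a difference of -0.94 ± 0.32, had the same limma adjusted p, so this test did not call it either. With the library pair as a term, 0 of 10 passed, where 0.148% of all features did. The lowest limma adjusted p among the members was then 0.279, for exu, and Boot, at 0.169, was not called. That fit has 1 residual degree of freedom, and 4 members (exu, bcd, orb and grk) had an unadjusted p under 0.05 in it, where 13.2% of all features did. A positive difference was found for 4 members and a negative one for 6. The member median was -0.056, beside -0.062 over all features.

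The egt null and wild-type values did not overlap for exu and bcd, both lower in the alleles. Non-overlap with lower values in the alleles was found for 2 of 10 members and for 11.7% of all features, and in the other direction for 0 of 10 members and 9.32% of all features.

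**Figure D1:**
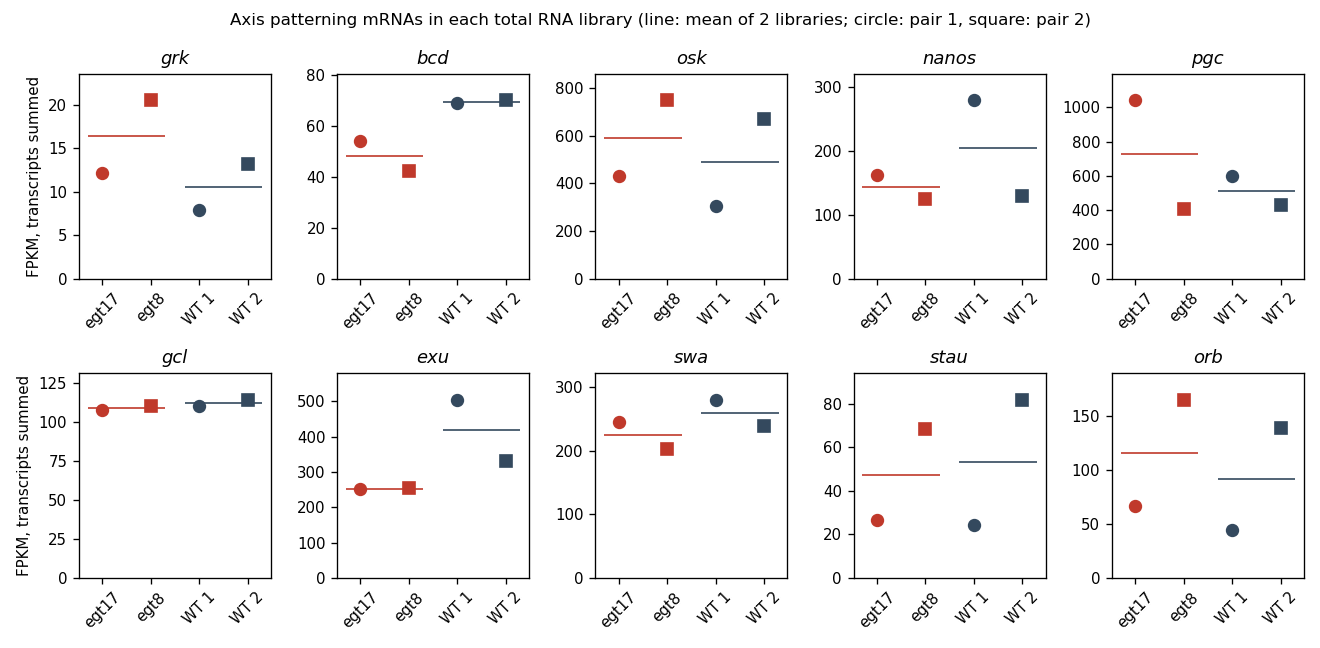
FPKM (vertical axis, from 0, transcripts of a gene summed) of each of the 10 mRNAs in egt17, egt8, wild type 1 (WT 1) and wild type 2 (WT 2). Red marks the alleles and dark blue wild type, lines are means of 2 libraries, circles are pair 1 and squares pair 2. For exu and bcd both alleles sit below both wild types, while osk, stau and orb are highest in the 2 libraries of pair 2.

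grk encodes the TGF-alpha-like ligand Gurken and lies on 2L from 8431086 to 8433598 in the RefSeq annotation of the dm6 assembly. Its RNA stood at 12.2 FPKM (egt17) and 20.5 FPKM (egt8), against 7.92 FPKM in wild type 1 and 13.2 FPKM in wild type 2. Each allele was above the wild type of its own pair, at 1.54 times its level in egt17 and 1.55 times in egt8, but egt17 lay below wild type 2, so the groups overlap. The difference of 0.58 ± 0.50 was near its SE (n = 2 each), with a 95% interval of the fit of -0.72 to 1.88. It was 0.23 without egt8, 0.24 without wild type 1, 0.92 without wild type 2 and 0.93 without egt17. With the pair as a term the SE was 0.22 and the limma adjusted p was 0.364. grk was the least abundant member by mean in wild type, and it has a single listed transcript. The gene shares 212 bases with Akap200, which was at 157 FPKM (egt17) and 167 FPKM (egt8). Akap200 stood at 173 FPKM in wild type 1 and 174 FPKM in wild type 2. The part of Akap200 reads in the grk values was not tested.

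bcd encodes the anterior homeodomain factor Bicoid and lies on 3R from 6755842 to 6759466. Summed over 5 transcripts it stood at 54.1 FPKM (egt17) and 42.2 FPKM (egt8), against 68.8 FPKM in wild type 1 and 70.0 FPKM in wild type 2. The wild types differed little, and both alleles were lower. The ratio to the wild type of the same pair was 0.787 in egt17 and 0.602 in egt8, and the pooled difference was -0.53 ± 0.33. It ranged from -0.71 without egt17 to -0.35 without egt8. Taken one by one, 4 of the 5 transcripts were below both wild types in both alleles, with differences from -0.68 to -0.30. The exception, NM_057477, was at 10.4 FPKM (egt17) and 6.07 FPKM (egt8), against 10.3 FPKM in wild type 1 and 11.5 FPKM in wild type 2. Shared reads may have been counted for each transcript, so these rows are not separate measurements.

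osk, on 3R from 8935126 to 8938395, encodes the organiser of germ plasm. Its RNA was at 432 FPKM (egt17) and 749 FPKM (egt8), against 305 FPKM in wild type 1 and 673 FPKM in wild type 2. Both alleles exceeded the wild type of their own pair, at 1.42 times its level in egt17 and 1.11 times in egt8. However, egt8 was at 1.73 times the level of egt17, and wild type 2 at 2.21 times that of wild type 1, so the groups overlap. The pooled difference of 0.33 ± 0.55 was -0.07 without egt8 and -0.24 without wild type 1. The table's row for an antisense RNA that overlaps osk by 162 bases, asRNA:CR44020, was at 9.52 FPKM (egt17) and 5.97 FPKM (egt8), against 5.79 FPKM in wild type 1 and 4.26 FPKM in wild type 2. Another annotated RNA, lncRNA:osk, shares 2680 bases with osk and had no matched values.

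nanos, on 3R from 19157238 to 19160202, encodes the posterior translational repressor. It stood at 163 FPKM (egt17) and 124 FPKM (egt8), against 279 FPKM in wild type 1 and 130 FPKM in wild type 2. Wild type 1 was above the other 3 libraries, and egt8 was close to wild type 2, at 0.956 of its value. The difference was -0.42 ± 0.47, and 0.13 without wild type 1. The gene shares 2641 bases with CG11779, which was at 69.1 FPKM (egt17) and 54.3 FPKM (egt8), against 48.97 FPKM in wild type 1 and 52.99 FPKM in wild type 2. It shares another 104 bases with Nsun5, which was at 24.1 FPKM (egt17) and 26.2 FPKM (egt8), against 47.6 FPKM in wild type 1 and 25.8 FPKM in wild type 2. Nsun5, like nanos, was highest in wild type 1, and CG11779 was not. How strand was used is not given in the sources used here, so reads of overlapping genes cannot be told apart. Such overlaps of annotated spans were found for 6 members (grk, osk, nanos, pgc, gcl and exu).

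pgc and gcl RNAs are stored in the germ plasm. pgc, on 2R from 22330200 to 22332813, encodes a small protein that silences transcription in pole cells, the germ cell precursors. It was at 1040 FPKM (egt17) and 409 FPKM (egt8), against 597 FPKM in wild type 1 and 430 FPKM in wild type 2. The egt17 value was above both wild types and the egt8 value below both. The alleles differed by 1.35 ± 0.87 (egt17 minus egt8, 1 library each), with a limma adjusted p of 0.876, and the pooled difference of 0.36 ± 0.56 was -0.31 without egt17. Its transcript NM_001103941 held 53.7% of the summed FPKM in egt17 and 38.6% in egt8, against 54.7% in wild type 1 and 41.2% in wild type 2, so this share followed the pairs and not the genotype.

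gcl, on 2R from 8724258 to 8728999, encodes a protein needed to form pole cells. It was the most even member, at 107.7 FPKM (egt17) and 110.1 FPKM (egt8), against 110.1 FPKM in wild type 1 and 114 FPKM in wild type 2. The groups overlap and lie within a narrow range. The difference was -0.04 ± 0.29, with a 95% interval of -0.80 to 0.72, and it ranged from -0.07 without wild type 1 to -0.01 without wild type 2.

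The next members act on the placement of RNA. exu, on 2R from 20667427 to 20671083, encodes Exuperantia, which is needed to bring bcd RNA to the anterior. It was at 251 FPKM (egt17) and 254 FPKM (egt8), against 504 FPKM in wild type 1 and 331 FPKM in wild type 2. The alleles were nearly equal and both were lower, egt17 at 0.498 of wild type 1 and egt8 at 0.766 of wild type 2. The difference of -0.69 ± 0.36 was the largest in size among the members, with a 95% interval of -1.63 to 0.24. It ranged from -0.996 without wild type 2 to -0.39 without wild type 1. All 4 transcripts were below both wild types in both alleles, with differences from -0.71 to -0.64, but shared reads may have been counted for each.

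swa, on X from 6363418 to 6365708, encodes Swallow, another protein needed to hold bcd RNA at the anterior. Its values were 246 FPKM (egt17) and 204 FPKM (egt8), against 281 FPKM in wild type 1 and 239.8 FPKM in wild type 2. Each allele was below the wild type of its pair, at 0.876 and 0.849 of it, but egt17 was above wild type 2. The difference was -0.21 ± 0.32, and it was -0.08 without egt8, -0.10 without wild type 1, -0.33 without wild type 2 and -0.35 without egt17.

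stau, on 2R from 18117896 to 18125779, encodes Staufen, a binder of double-stranded RNA that travels with osk RNA and later with bcd RNA. It was at 26.6 FPKM (egt17) and 68.4 FPKM (egt8), against 24.5 FPKM in wild type 1 and 81.9 FPKM in wild type 2. The values fell into pairs, with egt8 at 2.57 times the level of egt17 and wild type 2 at 3.34 times that of wild type 1. The genotype difference was -0.07 ± 0.76. It was 0.60 without egt17, 0.78 without wild type 2, -0.74 without egt8 and -0.92 without wild type 1.

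orb, on 3R from 23260610 to 23280856, encodes a CPEB-type regulator that promotes translation of osk and grk RNA. Summed over 7 transcripts it stood at 66.6 FPKM (egt17) and 165 FPKM (egt8), against 44.1 FPKM in wild type 1 and 138 FPKM in wild type 2. Here too pair 2 was high in both genotypes, and within each pair the allele was higher, at 1.51 times the wild-type level in egt17 and 1.19 times in egt8. The difference of 0.42 ± 0.72 was -0.23 without egt8 and -0.40 without wild type 1.

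**Figure D2:**
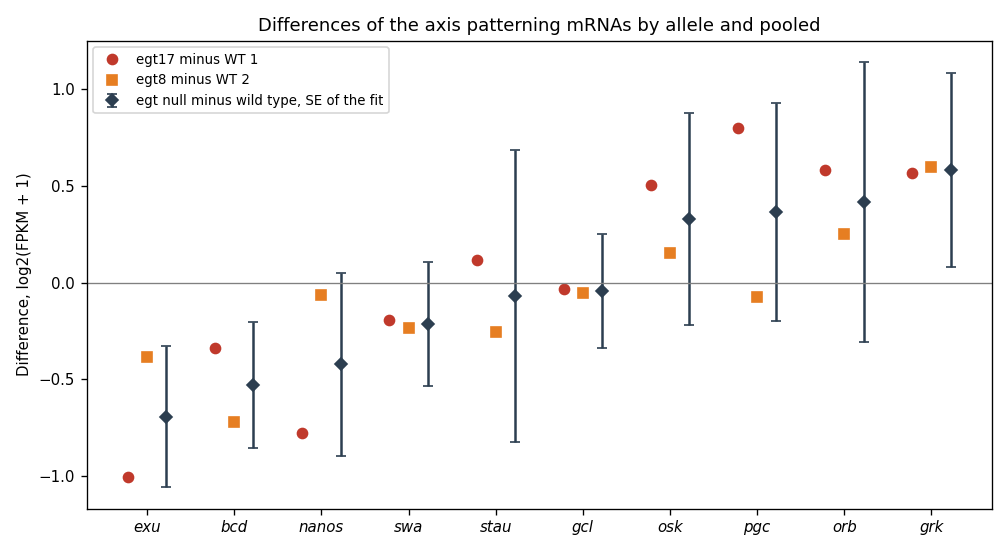
Difference in log2(FPKM + 1) for each mRNA, for egt17 minus wild type 1 (circles), egt8 minus wild type 2 (squares) and egt null minus wild type with the SE of the fit (diamonds), in order of the pooled value. exu (-0.69) and bcd (-0.53) lie lowest and grk (0.58) highest, with grk alike in both pairs and pgc and stau on opposite sides of 0.

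Set against the wild type of the same pair, 5 members were lower in both alleles (bcd, nanos, gcl, exu and swa), where 37.1% of all features were. Another 3 were higher in both (grk, osk and orb), where 24.8% of all features were, and pgc and stau went opposite ways. No member was at least 2-fold apart in both pairs. The member median was 0.04 in egt17 minus wild type 1, against 0.0027 over all features, and -0.07 in egt8 minus wild type 2, against -0.14 over all features.

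The pairs were taken from depth and from likeness over these same features, so large pair differences were in part fixed in advance. The pair difference (pair 2 minus pair 1) was larger in size than the genotype difference for 8 of 10 members, as it was for 74.4% of all features. exu and bcd were the exceptions. The pair difference reached 1.52 for stau, 1.46 for orb and 0.97 for osk, and was -0.91 for pgc and -0.74 for nanos. Between the wild-type libraries alone, 4 members (osk, nanos, stau and orb) differed by more than 2-fold. Over members the median size was 0.72 for the pair difference and 0.39 for the genotype difference, beside 0.59 and 0.23 over all features.

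**Figure D3:**
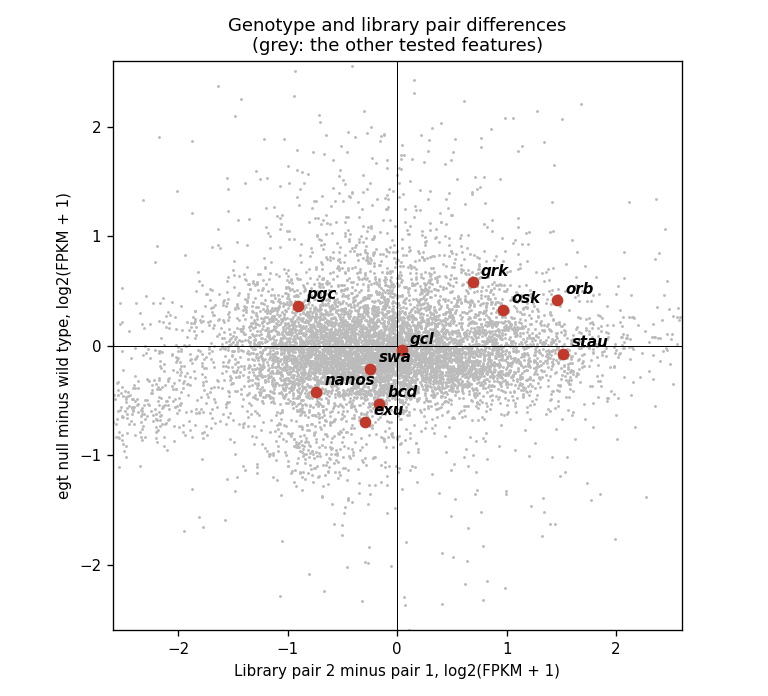
Genotype difference (vertical axis, egt null minus wild type) against library pair difference (horizontal axis, pair 2 minus pair 1), both in log2(FPKM + 1). The 10 mRNAs are red and other tested features grey, with 116 features outside the plotted range. stau, orb and osk lie far to the right, pgc and nanos to the left, and all 10 lie within 0.70 of 0 on the genotype axis.

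Taken one at a time against both wild types, the alleles gave no call either. Limma called 0 of 10 in egt17, where 0.0797% of all features passed, and 0 of 10 in egt8, where 0.0797% did. All members had a limma adjusted p of 0.9995 in egt17 and 0.9992 in egt8, and 0 of 10 had an unadjusted p under 0.05 in either. These comparisons share the wild-type libraries, each allele is 1 library, and its spread is assumed to be that of wild type. The largest value was 1.06 ± 0.72 for orb in egt8, where egt17 had -0.23 ± 0.72. pgc followed with 1.04 ± 0.75 in egt17, where egt8 had -0.31 ± 0.75. In the direct comparison of egt17 with egt8, limma called 0 of 10, where 0% of all features passed and 545 had an unadjusted p under 0.05 (6.21%), and 0 of 10 members had an unadjusted p under 0.05. The limma adjusted p of the members ranged from 0.876 to 0.997.

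Levels are compared between genes by the transcript with the highest mean FPKM, which is per length. The counting tool is not known, and a sum may grow with the number of listed transcripts. Those of osk stood at 216.8 and 215 FPKM in egt17 and at 148 and 157 FPKM in wild type 1, so shared reads may have been counted for each. On this scale swa averaged 225 ± 29.8 FPKM in the alleles and 260.2 ± 28.9 FPKM in wild type (SD, n = 2 each). pgc averaged 358 ± 283 FPKM in the alleles and 252 ± 105 FPKM in wild type, and osk 294 ± 111 FPKM in the alleles and 246 ± 126 FPKM in wild type. Among these 3 the order changed with the library and neighbours overlapped. exu averaged 88.5 ± 4.22 FPKM in the alleles and 149 ± 51.0 FPKM in wild type, and overlapped osk in wild type only. nanos averaged 71.5 ± 15.4 FPKM in the alleles and 106 ± 56.5 FPKM in wild type, below exu in every library, and gcl followed at 58.0 ± 1.09 FPKM in the alleles and 59.1 ± 2.79 FPKM in wild type. The lowest 4, orb, stau, bcd and grk, had averages from 11.3 to 25.5 FPKM in the alleles and from 10.6 to 20.4 FPKM in wild type, and changed places between libraries. Summed over transcripts, bcd averaged 69.4 FPKM and orb 91.2 FPKM in wild type, so their places depend on the use of the highest transcript.

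The genes whose profile over the 4 libraries was nearest to the mean profile of the members were timeout, Rab8, SLC5A11, Sf3a1 and CG9281. Their root-mean-square distances in centred log2 values were 0.001, 0.010, 0.018, 0.019 and 0.022, among 6730 genes with a mean of at least 5 FPKM. Each was slightly higher in pair 2 than in pair 1. Members themselves lay between 0.097 (gcl) and 0.656 (orb) from their own mean profile, and 247 genes were at least as near to it as gcl.

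The wider pathways were followed with lists of genes other than the members. Limma called 0 genes of every list in egt null against wild type, also with the pair as a term, and 0 in either allele. Factors for bcd RNA localisation and control (8 tested) had 2 higher and 6 lower (median -0.21). gammaTub37C, the maternal gamma-tubulin needed to anchor bcd RNA, was at 51.8 FPKM (egt17) and 51.7 FPKM (egt8), against 122 FPKM in wild type 1 and 91.6 FPKM in wild type 2. The alleles were nearly equal and below both wild types, with a difference of -1.01 ± 0.32 and a limma adjusted p of 0.169 with the pair as a term. Factors for osk RNA transport and translation (22 tested) had 11 higher and 11 lower (median 0.005). Within that list Khc, the kinesin heavy chain that moves osk RNA to the posterior, was at 66.4 FPKM (egt17) and 87.9 FPKM (egt8), against 92.2 FPKM in wild type 1 and 101 FPKM in wild type 2.

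Germ plasm and posterior factors (12 tested) had 4 higher and 8 lower (median -0.11). Genes for making Gurken in the germline (12 tested) had 3 higher and 9 lower (median -0.13). In this list lok, which encodes the checkpoint kinase through which DNA breaks reduce Gurken, was at 110.6 FPKM (egt17) and 116 FPKM (egt8), against 212 FPKM in wild type 1 and 189.9 FPKM in wild type 2. Both alleles were below both wild types, with a difference of -0.82 ± 0.30 and a limma adjusted p of 0.169 with the pair as a term. The Gurken receptor and follicle cell response list (8 tested) had 8 higher and 0 lower (median 0.51). Egfr, the receptor, was at 6.04 FPKM (egt17) and 9.86 FPKM (egt8), against 4.82 FPKM in wild type 1 and 4.67 FPKM in wild type 2. Markers of follicle cells stood higher beside it (10 tested, 8 higher and 2 lower, median 0.56), and their part in it was not tested; br, kek1 and mirr are on both lists.

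The dorsal pathway (14 tested, 3 higher and 11 lower) had a median of -0.14, and the terminal system (9 tested, 3 higher and 6 lower) one of -0.15. All 10 of the other maternal mRNAs had a negative difference (median -0.29, beside -0.062 over all features). Of the 10, 8 were lower than the wild type of the same pair in both alleles, where 37.1% of all features were. Both alleles were below both wild types for 2 of the 10, as for 11.7% of all features. hb, the gap gene whose maternal RNA nanos represses, was at 21.9 FPKM (egt17) and 33.3 FPKM (egt8), against 28.7 FPKM in wild type 1 and 53.4 FPKM in wild type 2. plu, a regulator of the early embryonic cell cycle, was at 101 FPKM (egt17) and 47.6 FPKM (egt8), against 135 FPKM in wild type 1 and 82.9 FPKM in wild type 2. Both had overlapping groups and were highest in different pairs.

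**Figure D4:**
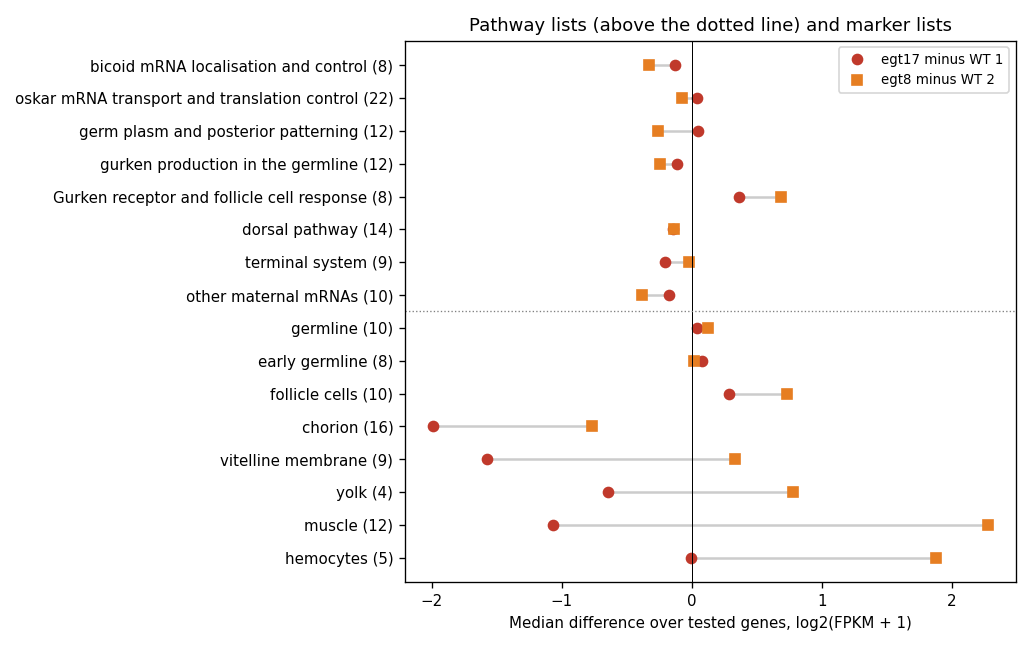
Median difference in log2(FPKM + 1) over the tested genes of each list (number in brackets), for egt17 minus wild type 1 (circles) and egt8 minus wild type 2 (squares). The pathway lists, other than the Gurken receptor list, lie within 0.39 of 0, while the chorion, vitelline membrane, yolk, muscle and hemocyte lists spread widely between the alleles.

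Markers of cell types and stages also differed between the libraries, and in bulk RNA fewer cells of a type and less RNA per cell cannot be told apart. The mean log2 level of 10 germline markers was 7.02 in egt17 and 7.53 in egt8, against 6.97 in wild type 1 and 7.45 in wild type 2. It was thus higher in pair 2, as osk, stau, orb and grk were, but the markers zpg and shu were lower there. The pair difference was also negative for pgc (-0.91), nanos (-0.74), exu (-0.30), swa (-0.25) and bcd (-0.16), and it was 0.04 for gcl. The summed FPKM of 16 chorion genes, made by follicle cells at the end of oogenesis, was 4662 in egt17 and 11308 in egt8, against 28520 in wild type 1 and 21204 in wild type 2. All 16 had a negative difference (median -1.40). The member median was -0.056, beside -0.062 over all features. The summed FPKM of 9 vitelline membrane genes was 2777 in egt17 and 17530 in egt8, against 11052 in wild type 1 and 11734 in wild type 2. The 16 muscle genes summed to 95.6 FPKM (egt17) and 518 FPKM (egt8), against 279 FPKM in wild type 1 and 67.1 FPKM in wild type 2. The 9 hemocyte-list genes summed to 159.8 FPKM (egt17) and 290.4 FPKM (egt8), against 157 FPKM in wild type 1 and 175 FPKM in wild type 2. Most of that sum was crq, Col4a1 and vkg, at 73.6, 108 and 85.0 FPKM in egt8. Hml, NimC1 and eater were at 0.593, 0.421 and 0.171 FPKM there, their highest values, and He was at 0 in every library. The part of these differences in the values of the members was not tested.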

How the data were processed

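The submitters' processing notes name dm6 and Bowtie2 2.2.4 without saying what each was for. The sources used here do not name the counting tool or say how strand and multiply mapping reads were handled. The deposited table held 35502 rows of FPKM to which the authors had added 1. Here 1 was subtracted, 32952 transcript rows were matched to genes by RefSeq identifier and transcripts summed by gene. Depth is approximate, read from the commonest smallest step in genes with 1 listed transcript.

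Tests used limma 3.58.1 in R 4.3.3 on log2(FPKM + 1), two-sided, with a mean-variance trend and Benjamini-Hochberg adjustment over 8780 features at 0.05. The alleles served as 2 replicates of the null genotype (2 residual degrees of freedom); a second fit had egt17, egt8 and wild type as 3 groups (1 residual degree of freedom). Python 3.11.15 was used with pandas 2.3.3, numpy 2.4.6 and, for figures, matplotlib 3.10.9.

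The members and lists were chosen with earlier results of these data known. Named were all members, and of each list up to 3 genes with the largest difference of 1 sign in both alleles, of which the text gives some. Small RNA values, which cover piRNA clusters, were not used here.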

Additional observations from a re-analysis of the deposited data

How the results depend on the processing

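No member passed the test in any comparison or alternative, and the lowest limma adjusted p over all of them was 0.279. In egt null against wild type, limma called 0 features, 13 with the library pair as a term, and 7 to 12 when 1 library was left out. Such fits have a lone library in a group, assumed to vary like the others. In egt17 the 7 calls became 3 with a pseudocount of 0.1, 3 with median-ratio scaling, 4 with a filter at 5 FPKM, 0 with no filter and 11 with scaling to germline markers. In egt8 the 7 calls became 0 with no filter. For egt17 against egt8 scaling to germline markers gave 16, against 0. That scaling was chosen after seeing the data.

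Of 350 alternative values for members, 329 kept their sign and 21 did not, and the causes were not tested. Many of the 350 could not change sign. Another filter, a fit with no trend and the pair as a term leave a member's difference as it was. The same holds for the top transcript of grk and swa, which have a single listed transcript. Leaving out 1 library gave -0.24 to 0.90 for osk, -0.97 to 0.13 for nanos, -0.31 to 1.04 for pgc, -0.92 to 0.78 for stau and -0.40 to 1.23 for orb. Pooled, gcl was 0.012 with median-ratio scaling and stau 0.097 by its top transcript. In egt17, against wild type 1 alone osk was 0.50, stau 0.12 and orb 0.58, and with germline scaling osk was 0.12, gcl 0.13 and swa 0.11. In egt8, stau was -0.25 against wild type 2 alone and gcl 0.14 with median-ratio scaling, which moved the median of all features there from -0.15 to 0.014. In egt17 minus egt8, gcl was 0.47 and exu 0.49 with germline scaling, and exu 0.096 by its top transcript. Of 204 alternative list medians, 50 moved by more than the spread between the pairs.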
